A study of Mus musculus with 12 samples.

Results

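Genes of mitosis, the kinetochore and cytokinesis were followed in isolated mouse glomeruli, in the arrays of 2 inbred strains with and without anti-GBM glomerulonephritis (anti-GBM GN), an inflammation set off by antibodies against the glomerular basement membrane. The members came from a fixed list of 45 genes. A gene entered when the platform annotation gave at least 1 probe set that names it and no other gene, and 44 of the 45 did, of 18193 genes represented in the same way. The remaining one, Ccnb1, has no expression values here and enters only the promoter windows below. Each gene was represented by its probe set of highest mean signal over the 12 arrays.

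The samples formed 4 groups of 3 mice: controls and anti-GBM GN mice of C57BL6J, and controls and anti-GBM GN mice of 129S2SvPAs. All were females of 8 to 10 weeks from Charles River. The challenged mice received nephrotoxic serum on days 0, 1 and 2 and were killed on day 4, and glomeruli were collected on nylon sieves of 100 µm and 45 µm. The labels name the controls only as control animals and do not say what they were given instead. Each array is counted as 1 mouse, as the design text states 3 mice per group. RNA came from whole glomeruli, so more dividing cells and more message per dividing cell cannot be told apart in any value below.

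The genes act in the last phase of the cell cycle. Cdk1 with its cyclins starts mitosis, the kinetochore ties each chromosome to spindle microtubules, the spindle assembly checkpoint holds back the anaphase promoting complex until all chromosomes are attached, and motor and bundling proteins then split the cell. Most cells of a resting glomerulus are out of cycle, podocytes above all, and glomerular cell proliferation is a feature of experimental crescentic glomerulonephritis. Many of these genes are switched on together in late G2 through 2 promoter elements, the cell cycle genes homology region (CHR), bound by the MuvB complexes that carry B-MYB and FOXM1, and the CCAAT box, bound by NF-Y.

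Promoter windows from RefSeq (build GRCm38.p6), running from 250 bases before to 50 bases after a transcription start, were matched to 37 of the 45 listed genes and gave 40 windows. CHR was searched as TTTGAA or TTCGAA and the box as CCAAT, on both strands. TTCGAA reads the same on both strands and was counted once, and a CCAAT match can share an end base with a CHR match. The stretches below run from 100 bases before to 30 bases after the start, 5′ to 3′ on the strand of the gene, with matches in capitals. Cdk1, Ccnb2 and Cdc20 are shown as members that drive entry into and exit from mitosis, Bub1, Hmmr and Kif23 as members whose response differed between the strains, and Nuf2 as one that differed likewise but holds neither element.
Cdk1, chr10:69352883-69353012, minus strand: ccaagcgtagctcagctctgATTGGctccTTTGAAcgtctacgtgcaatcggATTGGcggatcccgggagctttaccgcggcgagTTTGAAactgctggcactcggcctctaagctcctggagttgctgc
Ccnb2, chr9:70421525-70421654, minus strand: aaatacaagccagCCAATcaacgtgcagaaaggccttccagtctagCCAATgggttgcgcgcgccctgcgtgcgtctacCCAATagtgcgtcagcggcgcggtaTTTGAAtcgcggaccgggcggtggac
Cdc20, chr4:118437314-118437443, minus strand: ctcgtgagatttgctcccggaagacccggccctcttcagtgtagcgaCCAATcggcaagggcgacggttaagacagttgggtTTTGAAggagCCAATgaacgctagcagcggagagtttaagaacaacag
Bub1, chr2:127831830-127831959, minus strand: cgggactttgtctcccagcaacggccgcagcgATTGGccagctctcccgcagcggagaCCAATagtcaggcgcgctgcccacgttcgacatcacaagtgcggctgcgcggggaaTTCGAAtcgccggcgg
Hmmr, chr11:40733408-40733537, minus strand: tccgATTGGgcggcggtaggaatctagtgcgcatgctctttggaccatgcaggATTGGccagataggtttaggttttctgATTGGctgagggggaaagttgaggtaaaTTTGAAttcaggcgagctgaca
Kif23, chr9:61946770-61946899, minus strand: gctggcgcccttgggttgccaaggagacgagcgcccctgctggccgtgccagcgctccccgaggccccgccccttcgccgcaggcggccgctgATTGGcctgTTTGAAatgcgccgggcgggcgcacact
Nuf2, chr1:169531435-169531564, minus strand: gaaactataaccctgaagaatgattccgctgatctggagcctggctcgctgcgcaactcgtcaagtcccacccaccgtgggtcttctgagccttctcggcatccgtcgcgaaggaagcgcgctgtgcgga
A CHR match was present in 32 of the 40 windows (80.0%), against 19.2% of all 32851 windows of this length. The CCAAT box was present in 32 of 40 windows (80.0%) against 37.4% of all, and both together in 29 (72.5%) against 7.52%. The first base of a CHR match lay from 30 bases before to 45 bases after the start in 27 windows (67.5%), against 4.14% of all windows, a range that was chosen after the positions had been seen. In the Bub1 promoter the match began 15 bases after the start, in Ccnb2 5 bases after it and in Kif23 3 bases after it. Neither element was found in the windows of Birc5, Mad2l1, Melk, Nuf2 and Nusap1, which says only that these letters are not in those windows. Among windows of 75 promoters of other mitosis genes the shares were 57.3% for CHR and 65.3% for CCAAT, and among 38 of S phase genes they were 15.8% and 55.3%. No binding was measured in this study, so these matches are a description of the DNA.

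**Figure D1:**
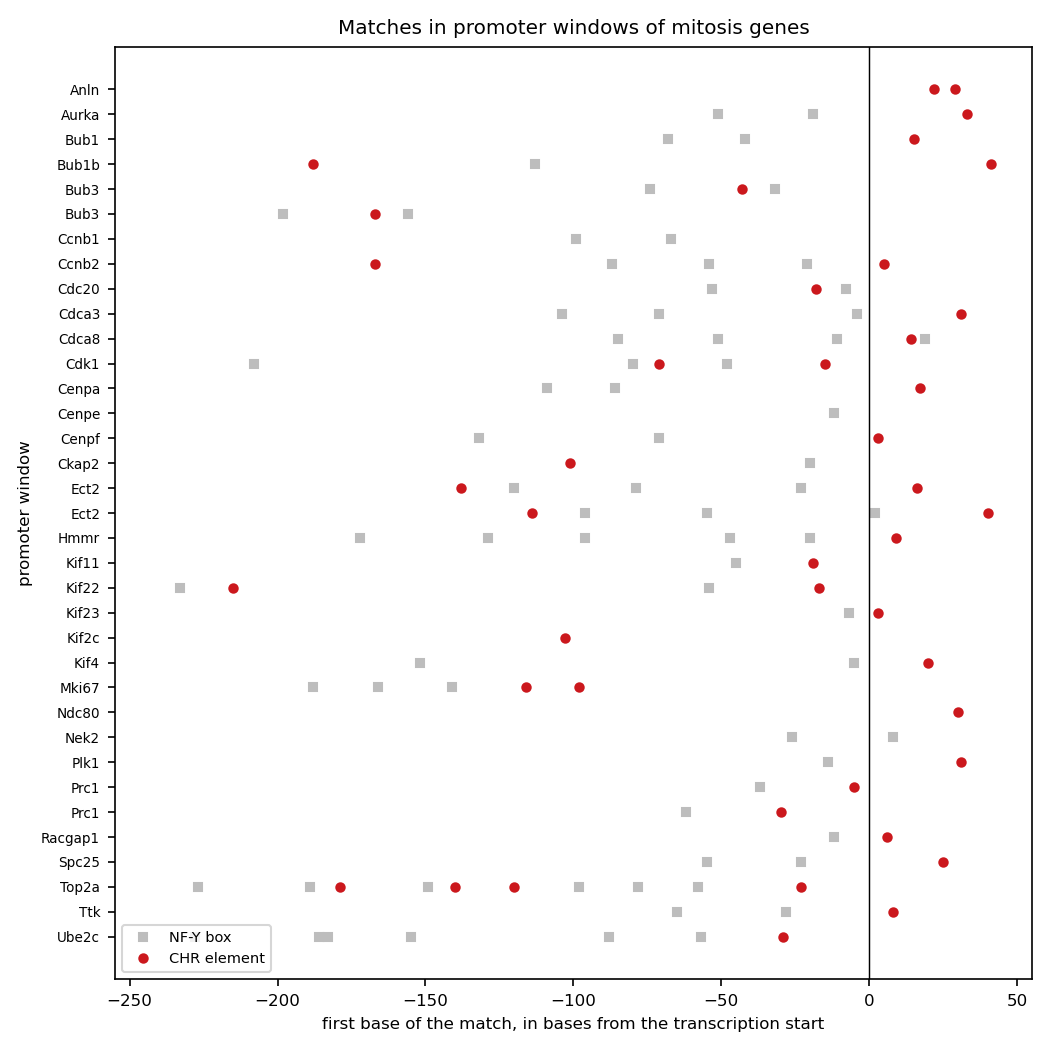
Positions of promoter matches (horizontal axis, bases from the transcription start, 0 marked by the vertical line) in each window of a mitosis gene that holds a match (vertical axis). Red circles are CHR elements and grey squares are NF-Y boxes. In 27 of the 40 windows a CHR match starts from 30 bases before to 45 bases after the start, while the 5 windows without any match are not drawn.

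Array medians ran from 2.99 to 3.06 on the log2 signal scale, and the median of the whole table was 3.03, which is used below as the level under which a probe set is close to background. A gene was tested when it exceeded that level on at least 3 arrays. 1 array stood apart. Over the 11920 tested genes, 129S2SvPAs anti-GBM GN replicate 1 correlated at r = 0.974 and 0.973 with replicates 2 and 3 of its group, which correlated at 0.994 with each other. Results that rest on it are given with and without it. The labelled tissue was checked on marker lists: all 12 podocyte markers and all 13 glomerular endothelial markers were above the table median on each array, and so were 24 of 25 proximal tubule markers, so the preparations held tubular RNA as well.

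Of the 44 genes, 38 were tested. Plk1, Cenpe, Ndc80, Ttk, Kif4 and Dlgap5 stayed too low and have values but no test. Of the 38, 10 exceeded the table median on arrays of challenged mice alone, and 3 of these, Nuf2, Bub1 and Bub1b, on C57BL6J anti-GBM GN arrays alone, so a difference in them was built into their passing. In controls the mean was at or below the table median for 20 of 44 genes in C57BL6J and for 23 in 129S2SvPAs, against 4 and 11 in the challenged groups. A difference measured from such a low control is therefore a difference from the bottom of the scale.

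**Figure D2:**
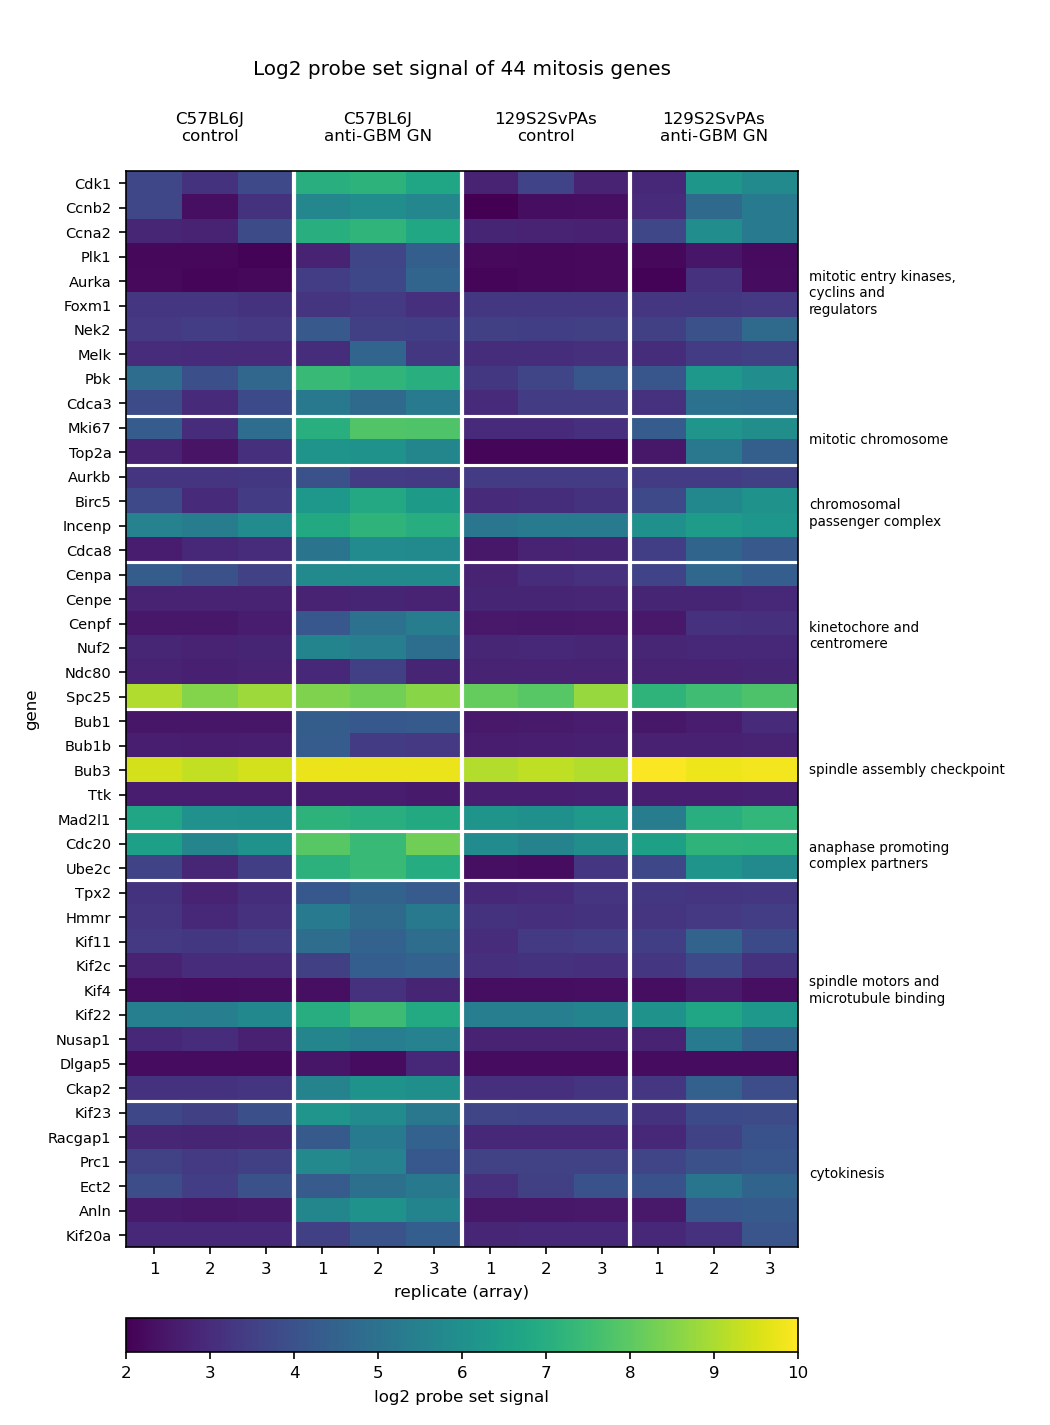
Log2 probe set signal (colour, from 2 to 10) of the 44 genes in rows, ordered by role, on the 12 arrays in columns, in 4 groups of 3 mice. The C57BL6J anti-GBM GN columns are brighter than their controls for most genes, and the first 129S2SvPAs anti-GBM GN column is darker than the other two of its group.

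The C57BL6J response asks which mitosis genes differ between challenged and control C57BL6J glomeruli on day 4. In this strain 30 of the 44 genes rose, none fell and 8 of the tested genes were not called, in limma's moderated test at an adjusted p under 0.05. Over all 11920 tested genes 4.78% were called higher and 2.31% lower. The median difference over the 44 genes was 1.64 on the log2 scale, against 0.00 over all genes and -0.03 over the tested genes, with a range from -0.35 for Spc25 to 3.85 for Ccna2. With 129S2SvPAs anti-GBM GN replicate 1 left out of the shared fit, 32 of the 44 were called in C57BL6J, against 5.82% of tested genes. All 3 challenged mice lay above all 3 controls for 41 of the 44 genes, against 13.2% of tested genes. The 129S2SvPAs response asks the same of the other strain. There 15 of the 44 genes rose and 1, Spc25, fell, against 10.6% of tested genes called higher and 9.77% called lower. Their median difference was 0.54, and the groups were apart upward for 18 genes, against 16.4% of tested genes. Without replicate 1 of the challenged group, 23 genes rose and none fell (12.2% of tested genes called higher and 9.98% lower), with a median of 0.80, and without replicate 2 the count of 16 fell to 10. When a gene had to exceed the 75th percentile of the table instead of its median, 12 of the 44 were left to test. Of these 12, 9 were called in C57BL6J and 11 in 129S2SvPAs. The shares of all genes tested under that filter were 8.66% and 26.5%, in either direction.

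**Figure D3:**
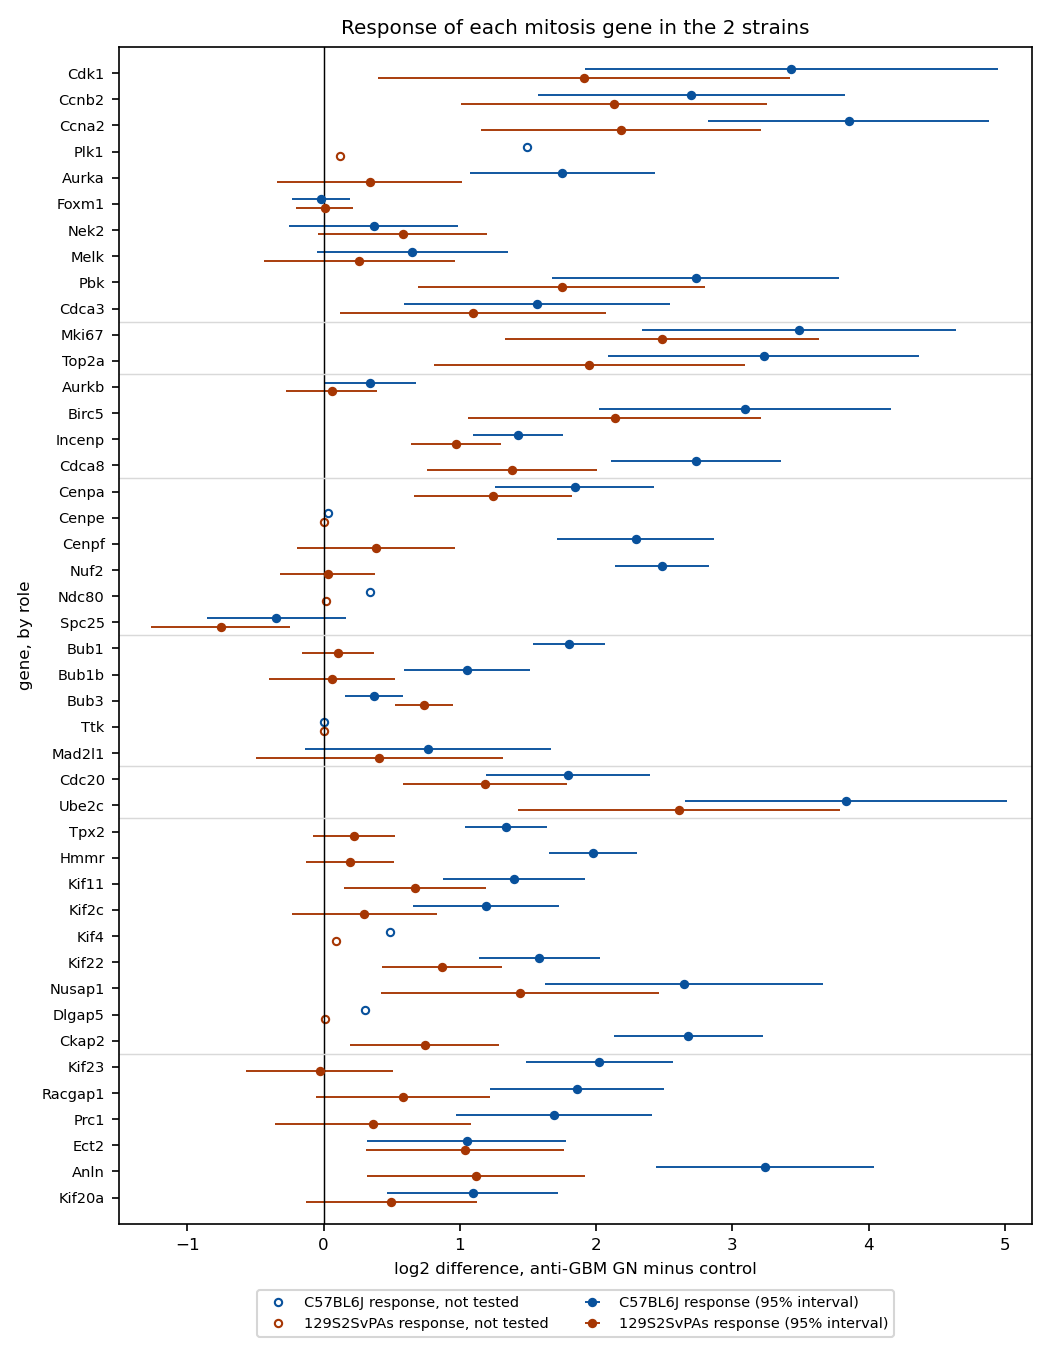
Response of each gene (horizontal axis, log2 difference between challenged and control mice, n = 3 per group) in C57BL6J (blue) and 129S2SvPAs (brown), with genes in rows by role. Bars are 95% confidence intervals from the limma fit and open circles are the 6 genes that were not tested. The response was the larger one in C57BL6J for 40 of the 44 genes, or 36 without 129S2SvPAs anti-GBM GN replicate 1, against 45.8% and 44.9% of all tested genes.

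Called genes overlapped between the strains as follows. 14 genes rose in both: Birc5, Bub3, Ccna2, Ccnb2, Cdc20, Cdca8, Cenpa, Incenp, Kif22, Mki67, Nusap1, Pbk, Top2a and Ube2c. Of all tested genes 3.58% were called higher in both. The 14 make up 14 of the 30 genes called higher in C57BL6J and 14 of the 15 called higher in 129S2SvPAs. A further 16 passed in C57BL6J without passing in 129S2SvPAs (1.20% of tested genes), and Ect2 passed in 129S2SvPAs without passing in C57BL6J (6.99%). Mean signal in challenged C57BL6J mice had a median of 7.01 over the 14 genes and 4.79 over the 16. The part of signal level in these calls was not tested. With replicate 1 left out, 21 passed in both strains, 11 in C57BL6J alone and 2 in 129S2SvPAs alone, against 4.33%, 1.49% and 7.91% of tested genes. Passing in one strain and not in the other does not show a difference between strains, which is tested on its own below.

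Among the kinases, cyclins and regulators of mitotic entry, 9 of 10 genes were tested. Of these 5 rose in C57BL6J and 3 in 129S2SvPAs, or 6 there without replicate 1. For this and each role below, 4.78% of all tested genes were called higher in C57BL6J and 10.6% in 129S2SvPAs (12.2% without replicate 1). No role was tested as a set. Cdk1, the kinase that starts mitosis, read 3.70, 3.17 and 3.78 in C57BL6J controls and 7.03, 7.18 and 6.74 in challenged C57BL6J mice. In 129S2SvPAs it read 2.78, 3.62 and 2.79 in controls and 2.88, 6.23 and 5.81 in challenged mice, where replicate 1 stayed within the range of the controls. The Cdk1 difference was 3.43 ± 0.69 (SE) in C57BL6J (adjusted p = 0.0126) and 1.91 ± 0.69 in 129S2SvPAs, not called (adjusted p = 0.0749) until replicate 1 was left out (2.96, adjusted p = 0.000134). In C57BL6J the Cdk1 call was lost when challenged replicate 2 was left out (adjusted p = 0.0596). Cyclin A2 (Ccna2) rose by 3.85 in C57BL6J and by 2.18 in 129S2SvPAs, and cyclin B2 (Ccnb2) by 2.70 and 2.13. The second Ccna2 probe set was called in C57BL6J (3.04) and not in 129S2SvPAs (0.95, adjusted p = 0.0808). Pbk, a mitotic kinase, rose by 2.73 and 1.75, although challenged 129S2SvPAs replicate 1, at 4.13, equalled the highest control of its strain. Aurora A (Aurka), which works at the spindle poles, rose by 1.75 in C57BL6J (adjusted p = 0.00612) and differed by 0.34 in 129S2SvPAs (adjusted p = 0.496).

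Not every gene of mitotic entry moved. Foxm1, the transcription factor of the late cell cycle, lay between 3.10 and 3.36 on all 12 arrays, and its difference was -0.02 in C57BL6J (95% interval -0.23 to 0.19) and 0.01 in 129S2SvPAs (-0.20 to 0.22). Its level was close to the table median throughout, so this probe set could show little. Polo-like kinase 1 (Plk1) read 2.17, 2.17 and 2.09 in C57BL6J controls and 2.81, 3.68 and 4.42 in challenged C57BL6J mice. The 6 values of 129S2SvPAs lay between 2.18 and 2.49, and Plk1 was not tested. Cdca3, a trigger of mitotic entry, differed by 1.57 and 1.10 and was called in neither strain (adjusted p = 0.0603 and 0.109), but in both without replicate 1. Nek2, a centrosomal kinase, differed by 0.37 and 0.58, and Melk by 0.65 and 0.26, none of them called, although Nek2 was called in 129S2SvPAs without replicate 1 (0.87, adjusted p = 0.0351).

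Both genes of the mitotic chromosome rose in both strains. Mki67, whose protein coats mitotic chromosomes and is the common proliferation marker Ki-67, read 4.32, 3.00 and 4.86 in C57BL6J controls and 7.01, 7.84 and 7.80 after challenge. In 129S2SvPAs the controls read 2.96, 2.96 and 3.07 and the challenged mice 4.34, 6.16 and 5.94. All challenged mice lay above all controls of their strain, by 3.49 ± 0.52 in C57BL6J (adjusted p = 0.00254) and 2.48 ± 0.52 in 129S2SvPAs (adjusted p = 0.0069). Top2a, the topoisomerase that untangles sister chromatids, read 2.75, 2.41 and 3.10 against 6.15, 6.12 and 5.68 in C57BL6J. In 129S2SvPAs its controls were all at 2.10 or 2.11, and the challenged mice read 2.53, 5.21 and 4.43. The Top2a difference was 3.23 ± 0.52 in C57BL6J (adjusted p = 0.0036) and 1.95 ± 0.52 in 129S2SvPAs (adjusted p = 0.0218), a call lost when any 129S2SvPAs control, or challenged replicate 2 or 3 of that strain, was left out.

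The chromosomal passenger complex corrects faulty attachments and prepares the cleavage plane. Of its 4 genes 3 rose in each strain. Birc5 (survivin) read 3.77, 2.97 and 3.42 in C57BL6J controls and 6.25, 6.83 and 6.36 after challenge, and 2.96, 3.04 and 3.18 against 3.76, 5.74 and 6.09 in 129S2SvPAs. It rose by 3.09 ± 0.49 (adjusted p = 0.00335) and 2.14 ± 0.49 (adjusted p = 0.0103). Incenp, the scaffold, read 5.54, 5.38 and 5.85 against 6.87, 7.20 and 6.98 in C57BL6J, and 5.14, 5.31 and 5.26 against 6.02, 6.39 and 6.21 in 129S2SvPAs. Incenp rose by 1.43 ± 0.15 and 0.97 ± 0.15 on this probe set (adjusted p = 0.000264 and 0.00117), with challenged 129S2SvPAs replicate 1 above the controls. On its other tested probe set the differences were 1.11 (called) and 0.14 (adjusted p = 0.806), and that replicate, at 2.71, was the lowest of the 12 arrays. Cdca8 (borealin) read 2.62, 2.93 and 3.01 against 5.08, 5.85 and 5.83 in C57BL6J, and 2.52, 2.79 and 2.84 against 3.48, 4.59 and 4.23 in 129S2SvPAs. It rose by 2.73 ± 0.28 and 1.38 ± 0.28 (adjusted p = 0.000257 and 0.00591), with every challenged mouse above every control of its strain. The other 2 tested Cdca8 probe sets were called in C57BL6J (2.02 and 1.72) and not in 129S2SvPAs (0.56 and 0.14, adjusted p = 0.28 and 0.583). Aurora B (Aurkb), the kinase of the complex, stayed between 3.19 and 3.98 on all arrays, with differences of 0.34 and 0.06 that were not called (adjusted p = 0.229 and 0.853).

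Of the 6 kinetochore and centromere genes 4 were tested. In C57BL6J 3 rose, and in 129S2SvPAs 1 rose and 1 fell. Nuf2, an outer kinetochore subunit that binds microtubules, read 2.86, 2.76 and 2.84 in C57BL6J controls and 5.61, 5.42 and 4.88 in challenged C57BL6J mice. All 6 values of 129S2SvPAs, challenged or not, lay between 2.85 and 2.92. Nuf2 therefore rose by 2.48 ± 0.16 in C57BL6J (adjusted p = 1.58e-05) and differed by 0.03 ± 0.16 in 129S2SvPAs (95% interval -0.32 to 0.38), on the only probe set annotated to it. Ndc80, its partner in the same complex, read 2.88, 3.52 and 2.84 in challenged C57BL6J mice and from 2.70 to 2.82 on the other 9 arrays, and was not tested. Cenpf, an outer kinetochore protein of G2 and mitosis, rose by 2.29 in C57BL6J (adjusted p = 0.000495) and differed by 0.38 in 129S2SvPAs (adjusted p = 0.354).

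Cenpa, the histone H3 variant that marks centromeres, read 4.36, 3.99 and 3.55 in C57BL6J controls and 5.83, 5.80 and 5.80 after challenge. In 129S2SvPAs it read 2.78, 3.02 and 3.15 in controls and 3.61, 4.68 and 4.39 after challenge. The groups did not overlap within either strain, and Cenpa rose by 1.84 ± 0.26 and 1.24 ± 0.26 (adjusted p = 0.00191 and 0.00727). Spc25, another subunit of the Ndc80 complex, behaved unlike the rest on its chosen probe set. It read 9.04, 8.51 and 8.84 against 8.46, 8.31 and 8.58 in C57BL6J, where the groups overlapped, and 8.11, 7.91 and 8.76 against 7.19, 7.55 and 7.77 in 129S2SvPAs. The 129S2SvPAs difference of -0.76 ± 0.23 (adjusted p = 0.0399) was lost in 8 of the 12 fits that left out 1 array, challenged replicate 1 among them (-0.60, adjusted p = 0.107). The second Spc25 probe set stayed below the table median on all 12 arrays, so the 2 probe sets of this gene disagree on whether it was detected.

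Of the 5 checkpoint genes 4 were tested, with 3 called higher in C57BL6J and 1 in 129S2SvPAs. Bub1, the kinase that recruits the checkpoint proteins to kinetochores, read 2.49, 2.47 and 2.47 in C57BL6J controls and 4.35, 4.21 and 4.27 after challenge. In 129S2SvPAs it read 2.55, 2.58 and 2.63 in controls and 2.52, 2.60 and 2.96 after challenge, so those groups overlapped. The differences were 1.80 ± 0.12 in C57BL6J (adjusted p = 2.05e-05) and 0.11 ± 0.12 in 129S2SvPAs (adjusted p = 0.594). Bub1b (BubR1), which inhibits the anaphase promoting complex, rose by 1.05 in C57BL6J (adjusted p = 0.0124) and differed by 0.06 in 129S2SvPAs. Its second tested probe set gave 1.96 and 0.06.

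Bub3, which carries Bub1 and BubR1 to kinetochores, gave the larger value in 129S2SvPAs. It read 9.47, 9.28 and 9.45 against 9.78, 9.78 and 9.75 in C57BL6J, and 9.09, 9.22 and 9.08 against 9.94, 9.81 and 9.85 in 129S2SvPAs, with no overlap in either. The differences were 0.37 ± 0.10 (adjusted p = 0.0421) and 0.74 ± 0.10 (adjusted p = 0.000418). The C57BL6J call was lost with the replicate number as a block (adjusted p = 0.0749) and in 10 of the 12 fits that left out 1 array, with differences from 0.31 to 0.41, and the other 2 tested Bub3 probe sets differed by -0.03 and -0.05 in C57BL6J and by 0.02 and 0.03 in 129S2SvPAs. Mad2l1, the Cdc20 inhibitor of the checkpoint, differed by 0.76 and 0.41 and was called in neither strain (adjusted p = 0.326 and 0.543). Challenged 129S2SvPAs replicate 1, at 5.36, was its lowest array, and without that array Mad2l1 was called in both strains (0.76 and 1.01, adjusted p = 0.031 and 0.00736). Ttk (the Mps1 kinase) lay between 2.59 and 2.70 on all arrays on its chosen probe set. Its second probe set read 3.50, 3.49 and 2.50 in challenged C57BL6J mice and from 2.37 to 2.46 on the other 9 arrays, and neither was tested.

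Both partners of the anaphase promoting complex rose in both strains on their chosen probe sets. Cdc20, the mitotic activator of the complex, rose by 1.80 ± 0.27 in C57BL6J and 1.18 ± 0.27 in 129S2SvPAs (adjusted p = 0.00275 and 0.011). Its other tested probe set was called in C57BL6J (2.22) and not in 129S2SvPAs (1.37, adjusted p = 0.0702). There challenged 129S2SvPAs replicate 1, at 4.12, lay inside the control range. Ube2c, the ubiquitin-conjugating enzyme that serves the complex, read 3.63, 2.87 and 3.49 in C57BL6J controls and 7.13, 7.43 and 6.94 after challenge, and 2.32, 2.27 and 3.25 against 3.72, 6.14 and 5.81 in 129S2SvPAs. It rose by 3.84 ± 0.54 and 2.61 ± 0.54 (adjusted p = 0.00164 and 0.00615), with no overlap between challenged and control mice.

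Spindle motors and microtubule-binding proteins had 7 of 9 genes tested, with all 7 called higher in C57BL6J and 2 in 129S2SvPAs (4 without replicate 1). Hmmr, a spindle assembly factor that also binds hyaluronan, read 3.23, 2.93 and 3.14 in C57BL6J controls and 5.25, 4.75 and 5.24 after challenge, and from 3.10 to 3.46 on all 6 arrays of 129S2SvPAs. The differences were 1.98 ± 0.15 (adjusted p = 3.33e-05) and 0.19 ± 0.15 (adjusted p = 0.407) on this probe set. The other tested Hmmr probe sets were not called in C57BL6J (0.69 and 0.52, adjusted p = 0.129 and 0.214). They were not called in 129S2SvPAs either (0.25 and 0.59, adjusted p = 0.532 and 0.085). Tpx2, which activates Aurora A on the spindle, read 3.17, 2.81 and 3.05 against 4.19, 4.56 and 4.30 in C57BL6J, and 2.92, 2.96 and 3.21 against 3.30, 3.19 and 3.26 in 129S2SvPAs. It rose by 1.34 ± 0.14 in C57BL6J (adjusted p = 0.000238) and differed by 0.22 ± 0.14 in 129S2SvPAs (adjusted p = 0.299).

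Ckap2, a microtubule-stabilising protein of the spindle, read 3.18, 3.18 and 3.24 in C57BL6J controls and 5.57, 6.09 and 5.97 after challenge. In 129S2SvPAs it read 3.07, 3.07 and 3.21 in controls and 3.25, 4.45 and 3.88 after challenge, an intermediate step with replicate 1 next to the controls. It rose by 2.68 ± 0.25 in C57BL6J (adjusted p = 0.000129). The 129S2SvPAs difference of 0.74 ± 0.25 missed the threshold (adjusted p = 0.0578) and passed it without replicate 1 (1.05, adjusted p = 0.00363). Nusap1 (a microtubule bundler) rose by 2.65 and 1.44, and Kif22 (a chromosome arm kinesin) by 1.58 and 0.87. The other tested probe sets of Kif22 differed by 0.07 and 0.29 in 129S2SvPAs, neither called. Kif11, the kinesin that separates the spindle poles, rose by 1.40 in C57BL6J and was called in 129S2SvPAs only without replicate 1 (0.67 with it, adjusted p = 0.0706, and 0.90 without it, adjusted p = 0.0155). Kif2c, a microtubule depolymerase, rose by 1.19 in C57BL6J and differed by 0.30 in 129S2SvPAs (adjusted p = 0.44).

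Of 6 cytokinesis genes, 5 rose in C57BL6J and 1, Ect2, in 129S2SvPAs. Kif23, the kinesin of the centralspindlin complex, read 3.73, 3.50 and 3.94 against 6.17, 5.87 and 5.20 in C57BL6J, and 3.66, 3.61 and 3.62 against 3.18, 3.80 and 3.82 in 129S2SvPAs. On this probe set it rose by 2.02 ± 0.24 in C57BL6J (adjusted p = 0.000661) and differed by -0.03 ± 0.24 in 129S2SvPAs (adjusted p = 0.965). The other tested Kif23 probe set, above the table median on all 12 arrays, differed by 0.05 in C57BL6J (adjusted p = 0.864) and 0.04 in 129S2SvPAs (adjusted p = 0.835). Racgap1, its partner in centralspindlin, rose by 1.86 in C57BL6J and differed by 0.58 in 129S2SvPAs, and Prc1, the midzone bundler, by 1.69 and 0.36. Neither 129S2SvPAs difference was called, but Racgap1 was called there without replicate 1 (0.88, adjusted p = 0.0373). The second Prc1 probe set was called in both strains (3.74 and 1.47).

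Anillin (Anln), the scaffold of the contractile ring, read 2.59, 2.52 and 2.59 in C57BL6J controls and 5.67, 6.12 and 5.62 after challenge. In 129S2SvPAs all controls lay at 2.52 to 2.54, and the challenged mice read 2.54, 4.16 and 4.25. It rose by 3.24 ± 0.36 in C57BL6J (adjusted p = 0.000436). In 129S2SvPAs the difference of 1.12 ± 0.36 missed the threshold (adjusted p = 0.0515) and passed it without replicate 1 (1.68, adjusted p = 8.23e-05). Ect2, the exchange factor that activates RhoA at the cleavage furrow, differed by 1.05 in C57BL6J (adjusted p = 0.0904) and by 1.04 in 129S2SvPAs (adjusted p = 0.0484), that is by nearly the same amount in both. Kif20a, a midzone kinesin, rose by 1.09 in C57BL6J and differed by 0.50 in 129S2SvPAs (adjusted p = 0.258).

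The spread among challenged 129S2SvPAs mice can be read from single arrays. Of the 44 genes, challenged C57BL6J replicates 1, 2 and 3 exceeded the highest C57BL6J control in 41, 43 and 41, against 26.4%, 30.7% and 29.3% of all tested genes. Challenged 129S2SvPAs replicates 2 and 3 exceeded the highest 129S2SvPAs control in 36 and 41, and replicate 1 in 19, with 18 genes inside the control range and 7 below it. The shares of all tested genes above the highest control were 32.4%, 31.9% and 36.0% in replicates 1, 2 and 3 of that group. In replicate 1, 37.5% of all tested genes lay below the lowest control. The median distance from the control mean was 1.56, 1.61 and 1.62 in C57BL6J and 0.02, 0.67 and 0.74 in 129S2SvPAs. A step of more than 1 above the highest control was seen for 28 to 30 genes in each challenged C57BL6J mouse, for 19 and 17 genes in replicates 2 and 3 of 129S2SvPAs and for 1 gene in replicate 1. Of all tested genes, 3.34%, 3.86% and 2.18% made such a step in challenged C57BL6J replicates 1, 2 and 3. In challenged 129S2SvPAs replicates 1, 2 and 3 the shares were 4.63%, 4.57% and 3.92%. Marker lists were averaged on the same 3 arrays, as distance from each gene's mean over 12 arrays. In replicates 1, 2 and 3, mesangial markers stood at 0.81, 0.60 and 0.32, podocyte markers at -0.98, -0.66 and -0.68 and proximal tubule markers at -0.43, -0.20 and -0.33. Their part in the values of replicate 1 was not tested.

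**Figure D4:**
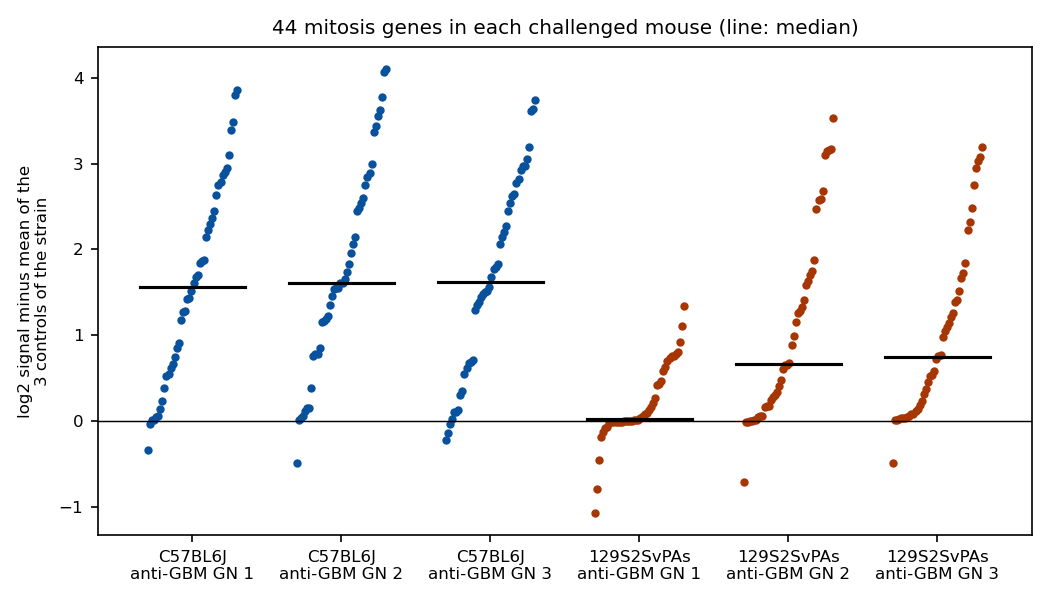
Distance of each of the 44 genes from the mean of the 3 controls of its strain (vertical axis, log2 units) on each of the 6 arrays of challenged mice (horizontal axis), with genes in rising order within an array. Black lines are medians, at 1.56 to 1.62 in C57BL6J and at 0.02, 0.67 and 0.74 in 129S2SvPAs.

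Whether the strains responded differently was tested as the difference of the responses, 129S2SvPAs minus C57BL6J. Of the 44 genes, 6 responded less in 129S2SvPAs and none more, against 0.294% of tested genes called lower and 0.268% called higher, and the median difference was -0.92 against 0.00 over all genes. The 6 were Nuf2 (-2.45 ± 0.22, adjusted p = 0.00139), Bub1 (-1.69 ± 0.17, adjusted p = 0.00201), Hmmr (-1.79 ± 0.21, adjusted p = 0.00559), Kif23 (-2.05 ± 0.35, adjusted p = 0.0358), Tpx2 (-1.12 ± 0.19, adjusted p = 0.0366) and Ckap2 (-1.93 ± 0.35, adjusted p = 0.0435). In the first 5 of these the 129S2SvPAs response itself was from -0.03 to 0.22. The mean signal of challenged 129S2SvPAs mice ran from 2.69 to 3.86 over the 6 genes, beside a table median of 3.03. Without replicate 1 all 6 were called again, Anln joined them (-1.56, adjusted p = 0.00811), 0.579% of tested genes were called lower and the median was -0.46. By role, 3 of the 6 are spindle proteins, 1 is a kinetochore subunit, 1 a checkpoint kinase and 1 a cytokinesis motor.

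Nuf2 and Bub1 were called under each of the 21 alternatives that tested them, but both passed the filter only through challenged C57BL6J arrays, so these counts add no support. Hmmr was called under 19 of 23 alternatives. Ckap2 was called under 8 of 21, Kif23 under 7 of 22 and Tpx2 under 6 of 20, with the same sign each time. With the replicate number as a block, Kif23 and Tpx2 were not called (adjusted p = 0.0772 and 0.0788). The count fell from 6 to 3 when any single C57BL6J or 129S2SvPAs control, challenged C57BL6J replicate 2 or challenged 129S2SvPAs replicate 3 was left out. The stricter filter drops all 6 from testing. Other tested probe sets of 2 of the genes were not called: the second Kif23 probe set differed by -0.01 and the other tested Hmmr probe sets by -0.44 and 0.07. A second Bub1b probe set, above the table median only in challenged C57BL6J mice, was called at -1.90 (adjusted p = 0.00304), while the chosen one was not (-0.99, adjusted p = 0.22). Cdca8 (-1.57, adjusted p = 0.0139) and Kif22 (-1.46, adjusted p = 0.0107) likewise each had 1 further probe set called where the chosen one was not. That Cdca8 probe set was above the table median on 4 arrays and that Kif22 probe set on 10. Bub1 has a second probe set that was below the table median on all arrays.

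For the other genes the test leaves wide intervals. The difference of responses was -1.01 for Mki67 (95% interval -2.63 to 0.62), -1.52 for Cdk1 (-3.66 to 0.62) and -0.96 for Birc5 (-2.48 to 0.56), and each moved toward 0 without replicate 1 (-0.44, -0.48 and -0.24). Cenpf, at -1.91, just missed the threshold with all arrays (adjusted p = 0.0568) and without replicate 1 (-1.72, adjusted p = 0.0653). Ect2, at -0.01 (-1.04 to 1.02), and Foxm1, at 0.03 (-0.27 to 0.33), were nearest to an equal response. Bub3 gave the largest value in the other direction, 0.37 ± 0.13 (adjusted p = 0.343).

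**Figure D5:**
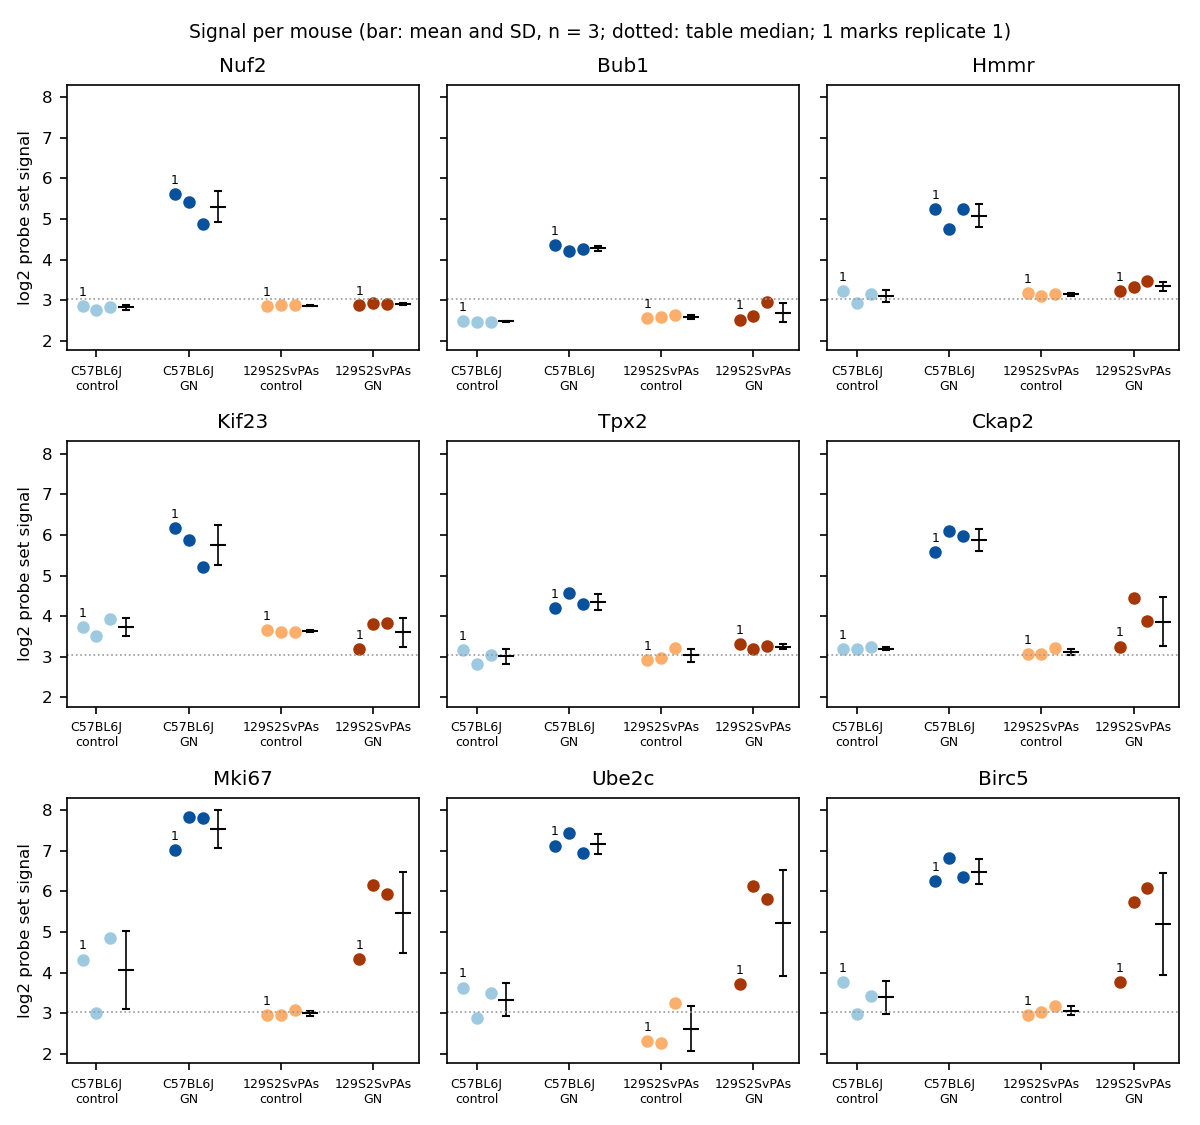
Log2 probe set signal (vertical axis) of 9 genes in each mouse of the 4 groups (horizontal axis), with the mean and SD of 3 mice at the right of each group. The dotted line is the table median and the digit 1 marks replicate 1. In all 9 panels challenged C57BL6J mice stand above all others. The upper 6 panels are the genes whose responses differed. For Mki67, Ube2c and Birc5 challenged 129S2SvPAs replicates 2 and 3 lie above all controls. Among the upper 6 they do so for Ckap2 and, by smaller steps, for Hmmr and Nuf2.

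Between controls, 129S2SvPAs minus C57BL6J, 1 of the 44 genes was called, Cenpa at -0.98 ± 0.26 (adjusted p = 0.0437), against 5.11% of tested genes called lower, and none was called higher, against 3.32%. At an unadjusted p under 0.05 there were 4 of the 38 tested genes: Cenpa, Bub3 (-0.27), Incenp (-0.35) and Spc25 (-0.54), all lower in 129S2SvPAs. Of all 11920 tested genes 2660 were under that p, 1530 of them lower in 129S2SvPAs, so the 4 do not stand out. The median difference of the 44 was -0.04 against 0.03 over all genes. The Cenpa call was lost in 9 of the 12 fits that left out 1 array, those without C57BL6J control 1 or 2, any 129S2SvPAs control, any challenged C57BL6J mouse or challenged 129S2SvPAs replicate 3, with differences from -1.19 to -0.79, and with the replicate number as a block (adjusted p = 0.0611).

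After challenge the strains were apart. Of the 44 genes 22 were lower in challenged 129S2SvPAs than in challenged C57BL6J mice and none was higher, against 4.89% of tested genes called lower and 3.49% called higher. The groups were apart downward for 29 genes, against 12.6% of tested genes, and the median difference was -1.17 against 0.03 over all genes. Without replicate 1, 17 genes were called lower (4.81% of tested genes) and the median was -0.76. Nuf2 (-2.41 ± 0.16, adjusted p = 6.37e-06), Bub1 (-1.58 ± 0.12, adjusted p = 1.87e-05), Hmmr (-1.74 ± 0.15, adjusted p = 4.48e-05) and Kif23 (-2.15 ± 0.24, adjusted p = 0.000354) had the lowest p. Nuf2 and Bub1 passed the filter only through challenged C57BL6J arrays, so this difference was built into their being tested. Anln (-2.15 ± 0.36, adjusted p = 0.00423), Ckap2 (-2.02) and Tpx2 (-1.10) were lower too. Mki67 was lower with all arrays (-2.07, adjusted p = 0.0333) and not called without replicate 1 (-1.50, adjusted p = 0.0699). Cdk1 was not called with all arrays (-2.01, adjusted p = 0.11). This comparison uses the same challenged arrays as the responses above and is no separate evidence for them. The count fell to 13 when challenged C57BL6J replicate 2 was left out or no filter was set. It was 10 when the 2 challenged groups were fitted alone. Under the stricter filter 7 of the 12 genes left to test were called, against 9.65% of all genes tested under it, in either direction.

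A longer list of other mitosis genes, also drawn up with results of these data known, 82 of 92 represented on the array, was read beside the 44. In C57BL6J 29 of the 82 rose and none fell, against 4.78% and 2.31% of tested genes, among them Iqgap3 (1.07), Knstrn, a spindle and kinetochore protein (1.57), Tubb5, a beta-tubulin (1.52), and Ncaph, a condensin subunit (2.36). In 129S2SvPAs 8 rose and 1, Ncapd3, fell, with Tubb5 (1.79), Cenpt of the inner kinetochore (1.68), Kpna2 (1.31) and Cks1b (1.95) having the lowest p, and 20 rose without replicate 1. Of the 82 genes 61 were tested, and the 8 of 61 stand near the 10.6% of all tested genes called higher in that strain. Without replicate 1 the 20 of 61 stand beside 12.2% of all tested genes. The responses differed for 4 of them (0.294% of tested genes called lower), all smaller in 129S2SvPAs: Iqgap3 (-1.01), Knstrn (-1.21), Kif18b (-0.71) and Cdc25b, the phosphatase that activates Cdk1 (-0.62). Pttg1 (securin) was lower in 129S2SvPAs both in controls (-4.04 ± 0.24) and after challenge (-3.26 ± 0.24).

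Genes of S phase, which precedes mitosis, were counted likewise on 40 of 42 listed genes. In C57BL6J 6 rose (4.78% of tested genes), led by Uhrf1 (1.96), Fen1 (0.65), Mcm7 (0.54) and Lig1 (0.96). In 129S2SvPAs 9 rose (10.6% of tested genes), led by the replicative helicase subunits Mcm7 (0.89), Mcm6 (2.46), Mcm2 (1.52) and Mcm3 (1.38), and none fell in either strain. None differed in response between the strains in limma's test, and 1, Mcm6, was called without replicate 1. At an unadjusted p under 0.05 there was 1 of the 36 tested, against 1298 of all 11920 tested genes. Their median difference of responses was 0.08, beside -0.92 for the 44 mitosis genes, and without replicate 1 the medians were 0.29 and -0.46. After challenge 1 S phase gene, Rpa2, was higher in 129S2SvPAs (0.75) and none was lower, beside 0 higher and 22 lower of the 44 (2 higher and 1 lower, beside 0 and 17, without replicate 1).

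Inhibitors and starters of the cycle were read as context. Cdkn1a (p21), the inhibitor induced by p53, rose by 3.82 ± 0.41 in C57BL6J and 4.02 ± 0.41 in 129S2SvPAs, and the difference of 0.20 was not called (adjusted p = 0.961). Cdkn1c (p57), an inhibitor that marks resting podocytes, read 9.14, 9.66 and 9.07 in C57BL6J controls and 9.95, 8.82 and 9.24 after challenge, a difference of 0.05 (adjusted p = 0.964). In 129S2SvPAs it read 8.29, 7.79 and 7.39 in controls and 6.32, 6.44 and 6.67 after challenge, with no overlap, and the difference was -1.35 ± 0.30 (adjusted p = 0.00914). The G1 cyclins Ccnd1 and Ccne1 were called in neither strain (0.40 and 0.07 in C57BL6J, 0.12 and 0.00 in 129S2SvPAs).

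Marker lists of cells that could carry mitosis messages into the preparation were read in the same arrays. The median level of the T and NK cell, B cell and neutrophil lists lay from 2.37 to 3.19 on every array, near the table median, and 1 to 4 of 11 T and NK cell genes, 1 or 2 of 4 B cell genes and 4 of 8 neutrophil genes exceeded that median. The lists hold genes well above it: the neutrophil gene S100a8 averaged 6.76 and 6.72 in C57BL6J controls and challenged mice and 4.53 and 5.55 in 129S2SvPAs, S100a9 6.59 and 6.46 against 4.11 and 5.75, and the granzyme gene Gzma 6.26 and 5.64 against 3.40 and 3.14. The monocyte and macrophage list, 15 genes, moved from -0.07 ± 0.22 to 0.35 ± 0.33 in C57BL6J and from -0.22 ± 0.33 to -0.07 ± 0.03 in 129S2SvPAs (mean ± SD of 3 arrays, distance from each gene's mean over 12 arrays). Within that list Cd14 went from 4.83 to 6.65 in C57BL6J and from 4.70 to 8.86 in 129S2SvPAs, and Lyz2 from 9.08 to 9.86 and from 8.49 to 7.13. The mesangial list of 8 genes moved from -0.44 ± 0.29 to 0.74 ± 0.17 and from -0.88 ± 0.10 to 0.58 ± 0.24, and the endothelial list from 0.19 ± 0.35 to 0.64 ± 0.32 and from -0.99 ± 0.67 to 0.15 ± 0.16. The parietal epithelial list of 8 genes moved from -0.49 ± 0.08 to 0.06 ± 0.07 and from -0.09 ± 0.28 to 0.52 ± 0.16. Proximal tubule markers went from 0.16 ± 0.15 to -0.02 ± 0.16 in C57BL6J and from 0.18 ± 0.08 to -0.32 ± 0.11 in 129S2SvPAs, where 8 of 25 fell and 1 rose. With the mean of these 25 genes as a covariate the median difference of the 44 mitosis genes in 129S2SvPAs was 1.14, against 0.54 without it, while 3 of them were called there (1.21% of all tested genes). Under that covariate 2 were called in the difference of responses (0.0419% of all tested genes) and 8 between the challenged groups (2.72%). The podocyte list was lower in 129S2SvPAs, with 11 of 12 markers lower in controls and 6 after challenge. The part of these cell types in the mitosis values was otherwise not tested.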

How the data were processed

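Glomerular RNA of 12 mice was measured on 1-colour Affymetrix arrays, 1 array per mouse. The authors' deposited value table holds log2 signals, 1 per probe set, from 1.12 to 15.02. The submitters' processing notes name MAS5 and GCRMA, without versions, and do not say which step made these values. The values were used as deposited, with no further scaling, and no scanner files were used here.

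Of 45037 probe sets 34945 carry 1 gene symbol in the platform annotation, and the one of highest mean signal stood for each of 18193 genes. Genes above the table median of 3.03 on at least 3 arrays (11920) were tested with limma 3.58.1 in R 4.3.3, in 1 fit over the 4 groups without a block, with Benjamini-Hochberg adjustment over all tested genes and a threshold of 0.05. The test was checked on simulated data. Errors are standard errors of that fit unless SD is written. Precision is limited by 3 arrays per group.

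Genes described in full were 14 fixed by role (Mki67, Top2a, Cdk1, Ccnb1, Foxm1, Plk1, Bub1, Nuf2, Ndc80, Aurkb, Birc5, Tpx2, Kif23 and Anln) and the 4 of lowest p in each of 5 comparisons. Of these, Ccnb1 had no probe set that names it alone and so has no expression values. Up to 4 genes per comparison of the other mitosis and S phase lists were named by p, with Cdkn1a, Cdkn1c, Ccnd1 and Ccne1 as context. Other members are given in shorter form. The members and all lists were chosen with earlier results of these data known. Alternatives covered scaling, filters, probe set choice, array weights, a replicate block, a proximal tubule covariate and each array left out. Over the 18 pairs of same-numbered arrays, deviations from the group means correlated from -0.38 to 0.33, and 11 pairs exceeded 0.1. All 3 pairs did so between the C57BL6J groups and between the 2 control groups, but not in the other comparisons. The numbers may therefore pair those samples, a pairing that the labels do not state. The main fit used no block in any comparison, and the replicate block was an alternative fit. With it the Bub3 call in C57BL6J and the Cenpa call between controls were lost. Sequences are from RefSeq, and 8 listed genes had no promoter window. Plots were drawn with matplotlib 3.10.9.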

Additional observations from a re-analysis of the deposited data

Results flagged for a closer look

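The difference of responses, 129S2SvPAs minus C57BL6J, passed limma's test of the interaction contrast for 6 of the 44 genes, and each is given with its value on the log2 scale. Nuf2 differed by -2.45 (95% interval -2.94 to -1.96). Bub1 differed by -1.69 (-2.06 to -1.32). Both Nuf2 and Bub1 passed the filter only through challenged C57BL6J arrays, so a difference in them was built into their being tested. Hmmr differed by -1.79 (-2.24 to -1.33) on its brightest probe set and by -0.44 and 0.07 on the other tested ones. Kif23 differed by -2.05 (-2.82 to -1.29) on its brightest probe set and by -0.01 on the other tested one. Tpx2 differed by -1.12 (-1.55 to -0.69). Ckap2 differed by -1.93 (-2.71 to -1.16), the only one of the 6 whose 129S2SvPAs response passed the test without replicate 1.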

How the results depend on the processing

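The genes called higher in C57BL6J numbered 30 of 38 tested. They were 9 of 12 tested when a gene had to exceed the 75th percentile of the table (6.06). Over fits that left out 1 array they numbered 25 to 32. In the 129S2SvPAs response 16 were called, against 7 from its own arrays alone, 3 with the proximal tubule covariate and 11 of 12 tested with that percentile. With an array left out, 10 (without 129S2SvPAs anti-GBM GN replicate 2) to 23 (without its replicate 1) were called. The 6 differing responses became 0 with the stricter filter, which drops all 6 from testing, and 2 with the covariate, and ranged from 3 to 7. The 1 control call became 0 under quantile scaling, the stricter filter, the mean of all probe sets, the 2 groups alone, the replicate block, the covariate and a minimum difference of 1, and was 0 to 1 with an array left out. The stricter filter drops this gene, Cenpa, from testing, and its difference of -0.98 lies below that minimum in size. The 22 calls between challenged groups became 13 without a filter, 7 of 12 tested with the stricter one and 10 from those groups alone. They became 8 with the covariate and ranged from 13 to 22 with an array left out. With the mean of all probe sets the median differences were 0.90 (C57BL6J), 0.28 (129S2SvPAs), -0.53 (difference of responses) and -0.60 (challenged groups). With array weights the last 2 were -0.45 and -0.75, and with the covariate the last 3 were 1.14, -0.47 and -0.81. Over the fits without 1 array the medians ran from 1.53 to 1.72 (C57BL6J), 0.37 to 0.80 (129S2SvPAs), -1.05 to -0.46 (difference of responses), -0.08 to -0.01 (controls) and -1.20 to -0.76 (challenged groups). Other probe sets reversed Bub3 in C57BL6J (-0.027 and -0.047), the Hmmr difference of responses (0.07) and Kif23 between challenged groups (0.12). Of 2136 values for single genes, 1906 kept direction and side of the threshold, 175 lost and 16 gained a call. Except where the construction shows it, the cause was not tested. With the replicate block 30, 17, 4, 0 and 18 genes were called in the 5 comparisons, in the order above. Of all 11920 tested genes that fit called 857, 2380, 33, 1095 and 984, in either direction. No such count over all genes is given for the fits of 2 groups alone or without a filter. Among the genes described in full, Top2a and Ube2c lost their call between challenged groups, Anln and Ckap2 gained one in the 129S2SvPAs response, and the other losses are given in the report. Levels near the table median limit what 20 of 44 genes could show in C57BL6J controls.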
